A study of Mus musculus with 7 samples.

Results

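The genes described here encode the hnRNP, SR and PTB families of splicing factors and their close partners in the mouse. They are the genes of the authors' deposited table whose names begin with Hnrnp, Srsf or Ptbp, together with Pcbp1, Pcbp3, Pcbp4, Mbnl1, Mbnl2, Mbnl3, Rbfox2, Tra2a, Tra2b, Celf1, Qk and Khdrbs1. There are 46 of them among the 15548 genes of that table and the 38924 genes counted. All 46 had enough reads to be tested, in a test that took in 16226 genes. The groups were 3 Pcbp2 knockout and 4 wild-type samples of fetal liver, all taken 12.5 days post coitum and sequenced as stranded messenger RNA libraries. Values listed one after another stand in the order of knockout replicates 3, 4 and 5 and of wild-type replicates 1 to 4. The labels give the genotype and age only, without the allele, sex, litter or strain, and do not say that each library came from a separate embryo. The p-values therefore measure the spread between these libraries, which may be technical. Between 31898339 and 44544889 reads per library were assigned to genes.

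Splicing factors of these families bind short stretches of pre-mRNA and decide whether the spliceosome uses an exon. SR proteins mostly promote the use of exons through enhancer sequences, and many hnRNP and PTB proteins mostly hold it back. PCBP2, the protein lost in the knockout, is itself a poly(C)-binding hnRNP with KH-type RNA-binding domains, so its nearest relatives are among these genes. The comparison of knockout with wild type asks here whether their transcripts differ when Pcbp2 is lost. The counts are per gene, and exon usage was not analysed.

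The knocked-out gene, Pcbp2, is not counted among the 46 genes. Levels are given as CPM, the reads of a gene relative to the reads of its library, after TMM scaling, which sets the typical gene equal between libraries. Pcbp2 stood at 2.24, 1.39 and 2.22 CPM in the knockout libraries and at 165, 329, 347 and 338 CPM in the wild-type libraries. The knockout libraries lay far below the wild-type ones, with a log2 fold change of -7.26 ± 0.34 (SE; edgeR's quasi-likelihood test with Benjamini-Hochberg adjustment, adjusted p = 1.29e-05), and wild-type replicate 1 was the lowest of its group. The title of the series names Pcbp1 as a retrotransposed derivative of Pcbp2, and the annotation gives it a single exon of 1830 bases on the minus strand of chromosome 6 (mm10, 86524492 to 86526321). Over 1053 aligned positions, the coding sequences of Pcbp1 and Pcbp2 were 82.3% identical in the GENCODE M21 transcripts. Their longest identical run was 33 bases. The window of 90 coding bases around that run (bases 756 to 845 of Pcbp1 and 768 to 857 of Pcbp2) is shown because it holds the longest identical run, and its 16 differing bases are in capitals.
Pcbp1: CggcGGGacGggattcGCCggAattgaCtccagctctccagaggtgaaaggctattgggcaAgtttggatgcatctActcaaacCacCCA
Pcbp2: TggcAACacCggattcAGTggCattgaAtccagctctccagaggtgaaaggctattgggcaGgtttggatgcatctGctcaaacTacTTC
No stretch of 50 bases of the Pcbp1 transcript occurred in a transcript of another annotated gene. The coding identity to Pcbp2 was 74.9% for Pcbp3, 69.6% for Pcbp4 and 60.7% for Hnrnpk.

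As a set, the splicing factor genes showed small differences. With edgeR 1 of the 46 genes rose and 0 fell at an adjusted p under 0.05, where 1.59% of all tested genes rose and 3.43% fell. At an unadjusted p under 0.05, 4 were higher and 0 lower in knockout, against 9.98% and 11.8% of all tested genes. The median log2 fold change was 0.06, beside 0.01 over all tested genes, and the median size of the change irrespective of sign was 0.10, beside 0.19. Among the 11376 genes with at least 5 CPM in 3 libraries that median size was 0.15. Among the 46 genes 0 reached a log2 fold change of 0.5 in either direction, a size that 18.2% of all tested genes reached. Of the 11376 genes with at least 5 CPM in 3 libraries, 1043 reached it. The fold changes ran from -0.27 for Mbnl3 to 0.46 for Pcbp4, and 32 were above 0 and 14 below, where 52.1% of all tested genes were above 0. The standard errors had a median of 0.11, beside 0.15 over all tested genes.

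**Figure D1:**
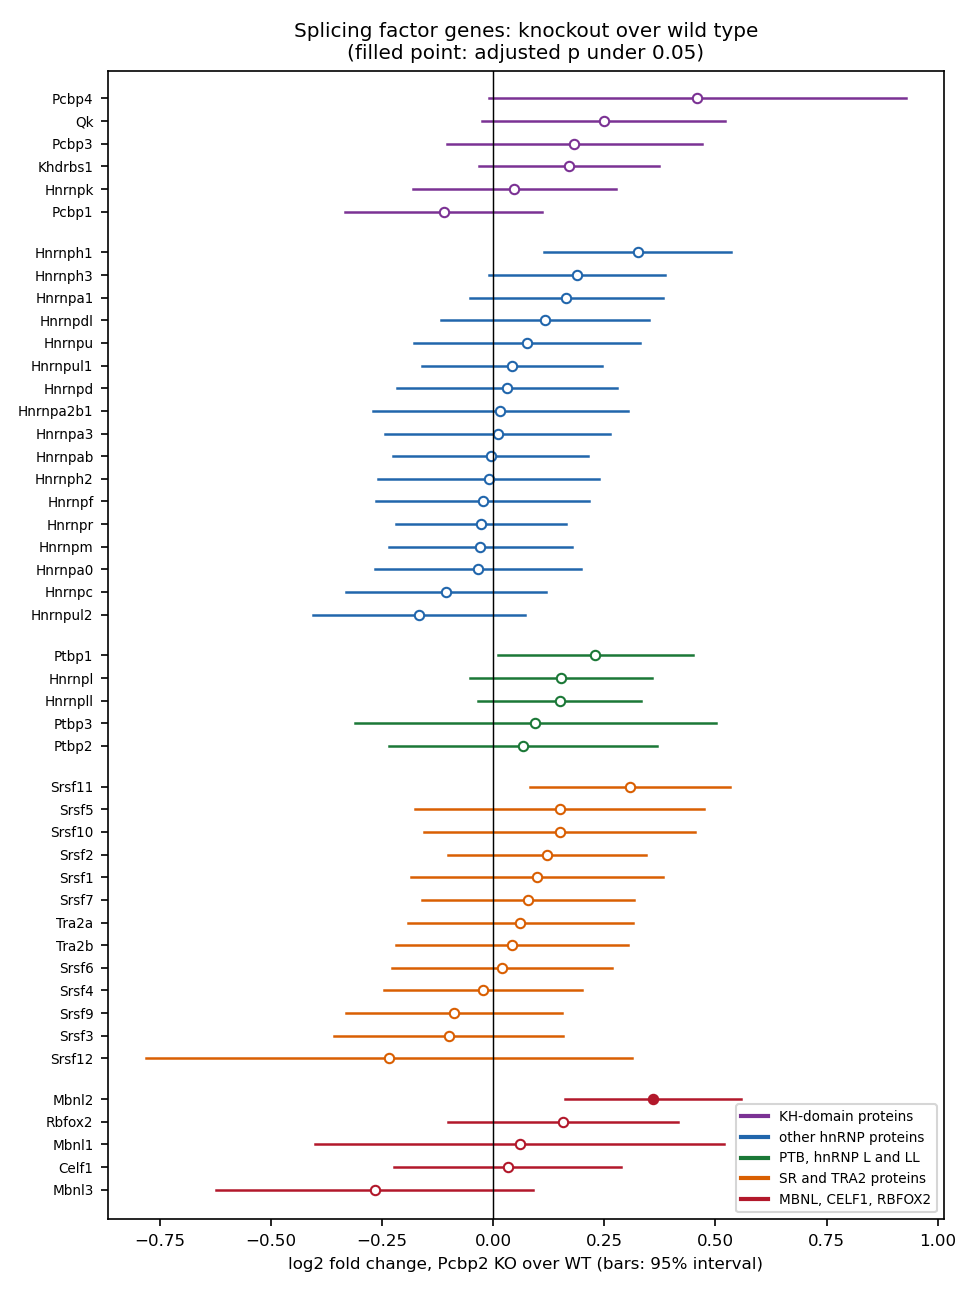
Log2 fold change of each of the 46 splicing factor genes, Pcbp2 knockout over wild type, with its 95% interval from the edgeR fit, grouped by role. Mbnl2 is the only filled point (adjusted p = 0.0474), and no gene has an estimate beyond 0.5 in either direction.

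The 95% interval lay within a log2 fold change of 0.5 on both sides for 37 of the 46 genes, and within 1 for all 46. Every knockout library lay above every wild-type library for 8 genes and below for 0, where 9.83% and 10.8% of all tested genes separated in these ways. The 8 genes were Mbnl2, Hnrnph1, Srsf11, Ptbp1, Hnrnph3, Khdrbs1, Hnrnpll and Hnrnpa1. The number that rose was 3 with total-count scaling, 2 with DESeq2 and 2 with the replicate number as a block, where 4.01%, 3.8% and 5.25% of all tested genes rose. Replicate numbers 1, 2 and 5 occur in a single group, so the block fit compared the genotypes through the libraries numbered 3 and 4 only. It was 1 with globins left out of the scaling and 1 among genes with at least 5 CPM in 3 libraries (1.59% and 1.82% of all tested genes). It was 0 with RLE size factors, limma-voom and no filter on low counts (1.53%, 1.45% and 1.39% of all tested genes). It was also 0 without wild-type replicate 1, 2, 3 or 4, where 0.919%, 2.62%, 0.493% and 0.581% of all tested genes rose, and without knockout replicate 3, 4 or 5, where 1.49%, 0.655% and 0.146% rose.

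The KH-domain proteins come first because they include the nearest relatives of the lost protein. Of the 6 genes in this group, 0 rose and 0 fell, where 1.59% of all tested genes rose and 3.43% fell. The median log2 fold change was 0.18. Pcbp1, which binds C-rich RNA as Pcbp2 does, had 270.3, 294 and 265.5 CPM in knockout and 280.5, 277, 319.8 and 318 CPM in wild type. The groups overlapped, at 277 ± 15.2 CPM in knockout (SD, n = 3) and 299 ± 23.3 CPM in wild type (SD, n = 4). The log2 difference of -0.11 ± 0.10 had a 95% interval of -0.33 to 0.11, so a rise of Pcbp1 beyond 1.08-fold lay outside it (edgeR adjusted p = 0.561). Its sign turned positive, at 0.0134, with total-count scaling.

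Pcbp4, another poly(C)-binding relative (chromosome 9, 106453291 to 106464012), had the largest estimate of all 46 genes and also the widest scatter. Its levels were 48.0, 83.3 and 67.5 CPM in knockout and 34.2, 58.4, 44.0 and 56.3 CPM in wild type. Knockout replicate 3 sat within the wild-type range, and the log2 difference of 0.46 ± 0.21 did not pass (edgeR adjusted p = 0.238, or 0.0452 with the replicate block). Pcbp3, a poly(C)-binding gene of low level, had 10.4, 10.8 and 11.3 CPM in knockout and 8.84, 10.9, 8.54 and 9.94 CPM in wild type. Among the knockout libraries replicate 5 alone lay above the wild-type range (log2 0.18 ± 0.13, edgeR adjusted p = 0.451).

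Hnrnpk, an abundant KH-domain protein that also binds C-rich RNA, had 1187, 1145 and 1200.1 CPM in knockout and 1248, 1069, 1119.9 and 1119.9 CPM in wild type. The groups overlapped, and the log2 difference of 0.05 ± 0.10 had an interval of -0.18 to 0.28. Khdrbs1 encodes Sam68, a STAR-family KH protein downstream of kinase signalling. It had 330.0, 313 and 348 CPM in knockout and 309.8, 292, 286 and 286 CPM in wild type. Its groups did not overlap, but the log2 difference of 0.17 ± 0.09 did not pass (edgeR adjusted p = 0.307). Qk, the STAR-family protein quaking, had 300.5, 214 and 246 CPM in knockout and 227, 211, 221.5 and 194 CPM in wild type. Knockout replicate 3 stood above the other knockout libraries, and the log2 difference was 0.25 ± 0.12 (edgeR adjusted p = 0.271).

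**Figure D2:**
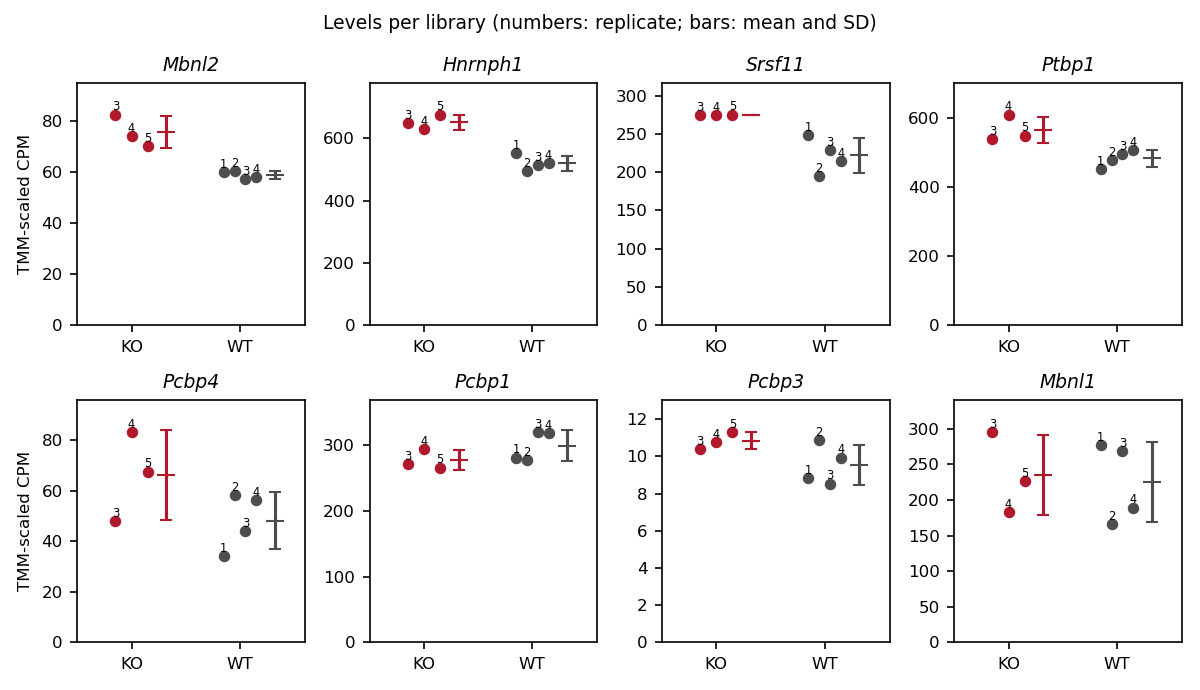
TMM-scaled CPM of 8 splicing factor genes in each library, with knockout left of wild type, replicate numbers beside the points, and the mean and SD of each group. Mbnl2, Hnrnph1, Srsf11 and Ptbp1 have every knockout library above every wild-type library, while Pcbp4, Pcbp1, Pcbp3 and Mbnl1 overlap.

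Among the other 17 hnRNP genes 0 rose and 0 fell, where 1.59% of all tested genes rose and 3.43% fell. The median log2 fold change was 0.01. Hnrnph1, which binds runs of G (chromosome 11, 50376990 to 50386528), came closest to the threshold. It had 650.1, 629 and 676 CPM in knockout and 553, 495, 515 and 519.5 CPM in wild type, so the lowest knockout library was above the highest wild-type one. The log2 difference of 0.32 ± 0.09 did not pass with edgeR (adjusted p = 0.0782), but did with DESeq2 (adjusted p = 0.0053) and with total-count scaling (adjusted p = 0.0188). In the authors' deposited table Hnrnph1 and Mbnl2 are the only 2 of the 46 genes with an adjusted p under 0.05, at 0.00771 and 0.00896, where 4.06% of the genes in that table rose and 6.86% fell.

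The relatives of Hnrnph1 had smaller differences. Hnrnph3, a shorter member of the same subfamily, had 55.7, 59.6 and 62.6 CPM in knockout and 52.3, 55.0, 49.6 and 50.9 CPM in wild type, and its groups did not overlap (log2 0.19 ± 0.09, edgeR adjusted p = 0.249). Hnrnph2, the X-linked copy with 85.4% coding identity to Hnrnph1, had a log2 difference of -0.01 ± 0.11, and Hnrnpf, with 77.3% identity, one of -0.02 ± 0.11. The tests of Hnrnph2 and Hnrnpf missed the threshold, with intervals of -0.26 to 0.24 and -0.26 to 0.22, and their signs turned positive with total-count scaling (0.12 and 0.10).

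Per length of all annotated exons joined, the 5 most abundant splicing factor genes all belonged to this group. Hnrnpa1, which represses exons by binding to silencers, stood first at 406 ± 20.3 CPM per kilobase in knockout and 362 ± 7.41 CPM per kilobase in wild type. Its TMM-scaled levels were 1214, 1279 and 1342 CPM in knockout and 1119, 1173, 1141.5 and 1129 CPM in wild type. The groups did not overlap, and the log2 difference of 0.16 ± 0.10 did not pass (edgeR adjusted p = 0.364). Hnrnpa3, Hnrnpf, Hnrnpa2b1 and Hnrnpab followed, at 276, 258, 255 and 233 CPM per kilobase in knockout and 274, 262, 252 and 234 CPM per kilobase in wild type. The ranges of neighbours in this order overlapped from Hnrnpa3 down to Hnrnpab, while Hnrnpa1 stood clear of them by this length. The joined exons can be far longer than a coding transcript, at 6584 against 1728 bases for Hnrnpa2b1 and 5710 against 1209 for Srsf1. For Hnrnpa1 the lengths were 3153 and 1918 bases, so the order depends on the length used.

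Hnrnpa3 and Hnrnpa2b1, close relatives of Hnrnpa1, had log2 differences of 0.01 ± 0.11 and 0.02 ± 0.13. Hnrnpa2b1 had 1719.7, 1630.2 and 1681 CPM in knockout and 1960.2, 1418, 1722 and 1532 CPM in wild type, and the knockout libraries lay within the wild-type range. Hnrnpul2, a nuclear hnRNP U-like protein, had the largest negative estimate among the hnRNP genes, with 289, 248 and 251 CPM in knockout and 312, 279, 322 and 268 CPM in wild type. Those groups overlapped (log2 -0.17 ± 0.11, edgeR adjusted p = 0.400). Hnrnpdl, which also binds AU-rich RNA, had 308, 331 and 338 CPM in knockout and 339, 268, 304 and 291 CPM in wild type (log2 0.12 ± 0.11, edgeR adjusted p = 0.564).

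Several hnRNP genes have near copies elsewhere in the genome, which limits how their reads can be assigned. Of all 50-base windows in a coding transcript of each gene, 91.0% of those of Hnrnpa3 and 46.4% of those of Hnrnpa1 also occurred in a transcript of another annotated gene, and 51.8% of those of Hnrnpf. The shares were 34.5% for Hnrnpk, 31.5% for Srsf3, 30.1% for Hnrnph2 and 0.385% for Hnrnph1. It was 0 for Mbnl2, Srsf11, Pcbp1, Pcbp3 and Pcbp4. Reads that aligned to more than 1 place were counted apart from genes, as 13.3 ± 1.81% of reads in knockout and 17.0 ± 1.86% in wild type, so the levels of the genes with large shares are uncertain.

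**Figure D3:**
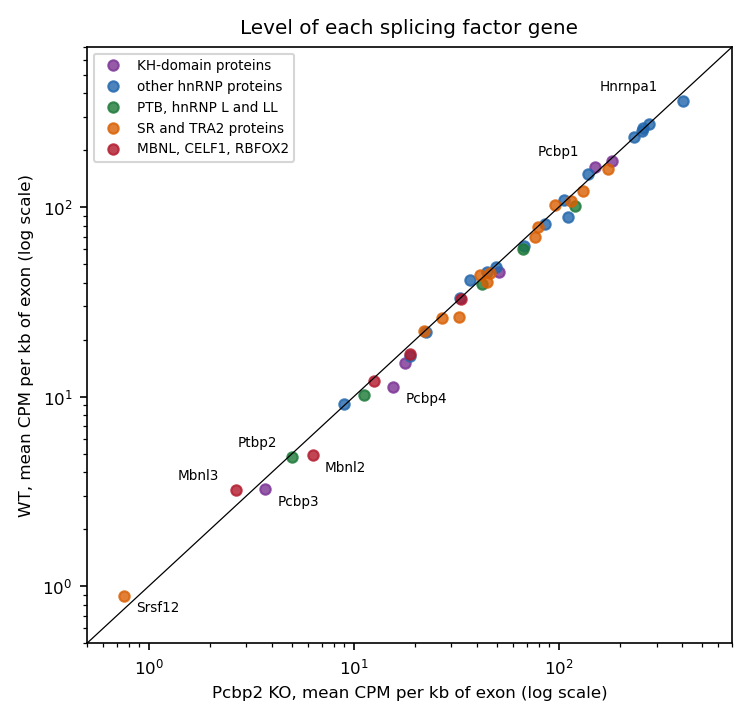
Mean CPM per kilobase of annotated exon of each splicing factor gene in knockout (horizontal, log scale) and wild type (vertical, log scale), with the line of equality. The genes lie close to the line from Srsf12 at 0.758 CPM per kilobase in knockout and 0.892 in wild type to Hnrnpa1 at 406 in knockout and 362 in wild type.

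The 5 genes for PTB proteins and the CA-repeat binders hnRNP L and hnRNP LL all had positive estimates, as 52.1% of all tested genes did. At the threshold 0 rose, where 1.59% of all tested genes rose, and the median log2 fold change was 0.15. Ptbp1, which binds polypyrimidine tracts and represses neuronal exons (chromosome 10, 79854427 to 79864771), had 540.0, 611 and 549.7 CPM in knockout and 452, 478, 496 and 508 CPM in wild type. Every knockout library lay above the wild-type ones, and the log2 difference was 0.23 ± 0.10 (edgeR adjusted p = 0.210). Ptbp2, the form that takes over in neurons, was lower in level, with 38.0, 44.9 and 55.0 CPM in knockout and 39.3, 49.2, 41.3 and 45.8 CPM in wild type (log2 0.07 ± 0.14, edgeR adjusted p = 0.816).

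Ptbp3, the paralog known from blood cells, had 377, 253 and 314 CPM in knockout and 371, 238, 326 and 243 CPM in wild type. The spread within each group exceeded the difference between them (log2 0.10 ± 0.18, edgeR adjusted p = 0.805). Hnrnpll, which controls exons of the CD45 gene in lymphocytes, had 133, 134 and 129 CPM in knockout and 126, 110.5, 119.9 and 119 CPM in wild type, without overlap (log2 0.15 ± 0.08, edgeR adjusted p = 0.326). Hnrnpl had 375, 417 and 400.6 CPM in knockout and 351, 350.3, 353 and 376 CPM in wild type, where replicate 4 reached into the knockout range (log2 0.15 ± 0.09, edgeR adjusted p = 0.370).

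Of the 13 SR and TRA2 genes 0 rose and 0 fell, where 1.59% of all tested genes rose and 3.43% fell. The median log2 fold change was 0.06. Srsf11, an SR-related protein (chromosome 3, 158010473 to 158036639), had nearly equal levels among the knockout libraries, at 274.5, 274.5 and 275 CPM. Its wild-type levels were 248, 195, 229 and 215 CPM. The knockout libraries were all above the wild-type ones, and the log2 difference of 0.31 ± 0.10 did not pass with edgeR (adjusted p = 0.110), DESeq2 (0.0514) or limma-voom (0.103), but did with total-count scaling (adjusted p = 0.0193). Srsf2, a classical SR protein of exonic enhancers, had 532, 494 and 518 CPM in knockout and 502, 425, 497 and 469 CPM in wild type (log2 0.12 ± 0.10, edgeR adjusted p = 0.524).

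Srsf10 had 358.5, 267 and 311 CPM in knockout and 329.5, 235, 283 and 278 CPM in wild type (log2 0.15 ± 0.14, edgeR adjusted p = 0.570). Srsf5 had 269, 336 and 316 CPM in knockout and 341, 248, 289.7 and 227 CPM in wild type (log2 0.15 ± 0.15, edgeR adjusted p = 0.595). Both genes spread over a similar range in each genotype. Srsf12 had the lowest level of all 46 genes, with 2.21, 2.58 and 2.37 CPM in knockout and 2.61, 4.00, 2.27 and 2.35 CPM in wild type, and the widest standard error (log2 -0.23 ± 0.25, edgeR adjusted p = 0.626). The other SR genes, Srsf1, Srsf3, Srsf4, Srsf6, Srsf7 and Srsf9, and the related Tra2a and Tra2b, had log2 differences between -0.10 for Srsf3 and 0.10 for Srsf1.

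The last group holds the MBNL proteins, their antagonist CELF1, and RBFOX2. Of these 5 genes 1 rose and 0 fell, where 1.59% of all tested genes rose and 3.43% fell. Mbnl2, a muscleblind protein that shifts exons towards their mature pattern (chromosome 14, 120275669 to 120431697), had 82.5, 74.1 and 70.3 CPM in knockout and 60.0, 60.5, 57.3 and 58.1 CPM in wild type. The lowest knockout library was well above the highest wild-type one, and the wild-type libraries hardly differed. Mbnl2 averaged 75.6 ± 6.26 CPM in knockout (SD, n = 3) and 59.0 ± 1.53 CPM in wild type (SD, n = 4). The log2 fold change was 0.36 ± 0.09 (edgeR adjusted p = 0.0474), a 1.28-fold difference with a 95% interval of 1.12-fold to 1.47-fold.

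The call of Mbnl2 ended when any one of the 7 libraries was left out, with adjusted p up to 0.122, and with RLE size factors (0.0505), limma-voom (0.0553) or no filter on low counts (0.0625). The log2 fold change without single libraries stayed between 0.29 and 0.41. Endothelial marker genes moved in the same direction, with 3 of 7 higher and 0 lower, where 1.59% of all tested genes rose and 3.43% fell. Their summed level was 335, 274 and 255 CPM in knockout and 190.4, 204, 251 and 189 CPM in wild type. Among stellate and mesenchymal markers 1 of 8 rose and 0 fell, with summed levels of 2618 to 3095 CPM in knockout and 2630.0 to 4127 CPM in wild type. The part of these cell types in the Mbnl2 difference was not tested. In whole tissue, a change in the number of cells of a type cannot be told apart from a change in the RNA of each cell.

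Mbnl3, the muscleblind gene on the X chromosome, had 29.7, 18.4 and 22.1 CPM in knockout and 31.5, 25.4, 26.4 and 29.3 CPM in wild type. Its estimate was the most negative of the 46 genes, but the groups overlapped (log2 -0.27 ± 0.16, edgeR adjusted p = 0.371). Rbfox2, which acts in epithelial, muscle and erythroid splicing, had 141, 159.6 and 158 CPM in knockout and 121, 166, 129 and 132 CPM in wild type (log2 0.16 ± 0.12, edgeR adjusted p = 0.472). Celf1, which binds GU-rich RNA, had 316, 257.5 and 273 CPM in knockout and 301, 246, 298 and 259 CPM in wild type (log2 0.03 ± 0.12, edgeR adjusted p = 0.901).

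Mbnl1 showed how much single libraries can differ within a genotype. Mbnl1 had 296, 183 and 226.5 CPM in knockout and 278, 166, 269 and 189.5 CPM in wild type. The groups covered the same range, and the log2 difference was 0.06 ± 0.21 (edgeR adjusted p = 0.897). Ptbp3 put the libraries in the same order within each genotype, and Pcbp4 in the reverse order. These 3 genes, picked out after their values were seen, had the largest within-group SDs of the 46 on a log2 scale, at 0.36, 0.31 and 0.37, beside medians of 0.12 over the splicing factor genes and 0.19 over all tested genes.

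The summed level of 10 erythroid marker genes followed that order within each genotype, with 16182, 12023 and 15516 CPM in knockout replicates 3, 4 and 5 and 89314, 49714, 71442 and 62773 CPM in wild-type replicates 1 to 4. Between genotypes these markers differed far more, with 7 of 10 lower and 0 higher in knockout, than Mbnl1, Ptbp3 or Pcbp4 did. Of all tested genes 1.59% were higher and 3.43% lower. The summed level of all 46 splicing factor genes put the libraries in the same order within each genotype. It was 19556, 18414 and 19402 CPM in knockout and 19841, 16911, 18760 and 17823 CPM in wild type. The share of reads aligned to more than 1 place, given below, did so too, with wild-type replicates 3 and 4 nearly equal. The part of red cell content in the spread of Mbnl1, Ptbp3 and Pcbp4 was not tested.

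**Figure D4:**
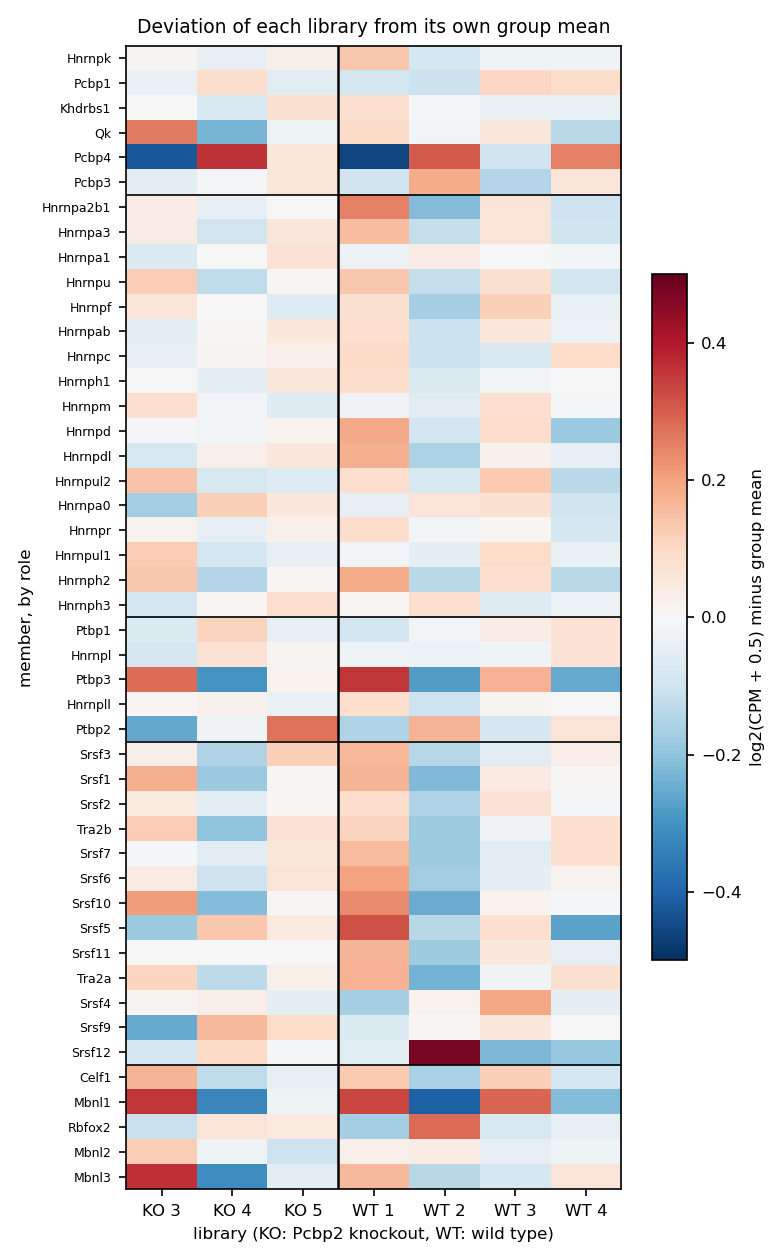
Deviation of each library from the mean of its own group, as log2(CPM + 0.5), for each splicing factor gene (rows, by role) in knockout (left) and wild-type (right) libraries. Red is above and blue below the group mean. Wild-type replicate 1 is mostly red and replicate 2 mostly blue.

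Many of the splicing factor genes leaned up together in wild-type replicate 1 and down together in wild-type replicate 2. In knockout, 18 genes were highest in replicate 3, 11 in replicate 4 and 17 in replicate 5, where 39.6%, 38.7% and 21.7% of all tested genes were highest, so the count for replicate 3 was near the share of all genes. In knockout replicate 4, 24 of the 46 genes were lowest, where 35.0% of all tested genes were. In wild type, 28 of the 46 genes were highest in replicate 1, where 30.5% of all tested genes were, and 28 were lowest in replicate 2, where 29.2% of all tested genes were. The median deviation from the group mean was 0.01, -0.03 and 0.02 in knockout replicates 3, 4 and 5, and 0.09, -0.10, 0.03 and -0.03 in wild-type replicates 1 to 4. Over all tested genes the same medians lay between -0.01 and 0.01. The share of reads aligned to more than 1 place was 14.7%, 11.3% and 14.0% in the knockout libraries and 19.6%, 15.2%, 16.6% and 16.6% in the wild-type libraries, lowest in the same libraries as the splicing factor genes, and its part was not tested. Leaving out wild-type replicate 2 brought the median log2 fold change of the splicing factor genes to 0.0025 and the number above 0 to 23, and leaving out wild-type replicate 1 brought them to 0.10 and 36.

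The direction of the small differences also depended on the scaling. Of all reads in genes, those of the 46 genes were 2.01 ± 0.03% in knockout (SD, n = 3) and 1.76 ± 0.04% in wild type (SD, n = 4), without overlap between the groups. After TMM scaling their summed level was 19124 ± 620 CPM in knockout and 18334 ± 1257 CPM in wild type, with overlap. Scaling by total reads gave medians of 0.14 over all tested genes and 0.19 over the splicing factor genes, and put 43 of the 46 above 0. Relative to the median of all tested genes, the splicing factor genes thus lay 0.05 higher under either scaling.

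The general spliceosome and the regulators of SR proteins were listed for comparison. Of 40 tested core spliceosome genes 0 rose and 0 fell with edgeR, where 1.59% of all tested genes rose and 3.43% fell. Their median log2 fold change was 0.01. At an unadjusted p under 0.05, 5 were higher and 3 lower, where 9.98% of all tested genes were higher and 11.8% lower. With DESeq2 0 of them rose and 2 fell. Of 18 genes for SR kinases, the SR importer and SR-related proteins 1 rose and 0 fell, against 1.59% and 3.43% of all tested genes. A positive estimate was found for 17, where 52.1% of all tested genes had one, and the median was 0.23. At an unadjusted p under 0.05, 7 of the 18 were higher and 1 lower, against 9.98% and 11.8% of all tested genes. The one that rose was Clk2, a kinase that phosphorylates SR proteins, with 47.8, 53.3 and 47.9 CPM in knockout and 33.9, 31.97, 37.5 and 36.6 CPM in wild type. Its groups were well apart (log2 0.50 ± 0.10, edgeR adjusted p = 0.0201). No gene of this list rose without knockout replicate 4 or without knockout replicate 5, where 0.655% and 0.146% of all tested genes rose.

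Of 38 tested genes for other RNA-binding proteins of splicing 1 rose and 1 fell, where 1.59% of all tested genes rose and 3.43% fell. At an unadjusted p under 0.05, 6 were higher and 4 lower, against 9.98% and 11.8% of all tested genes. Tia1, which binds U-rich stretches next to weak 5′ splice sites, had 156, 164 and 172.5 CPM in knockout and 116, 107, 100.2 and 115 CPM in wild type (log2 0.58 ± 0.09, edgeR adjusted p = 0.00742). No gene of the list rose without knockout replicate 5, where 0.146% of all tested genes rose. Rbm38, an RNA-binding protein of red cell splicing, had 62.6, 59.4 and 57.8 CPM in knockout and 121, 88.5, 129 and 109.9 CPM in wild type (log2 -0.90 ± 0.13, edgeR adjusted p = 0.00595). Both differences were larger than any among the 46 genes. Erythroid markers moved with Rbm38, as given above, and their part in its fall was not tested.

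Markers of the tissue were present in every library. For comparison with the counts below, 1.59% of all tested genes rose and 3.43% fell. Of 10 hepatoblast markers 0 rose and 0 fell, with summed levels of 7454 to 9433 CPM in knockout and 5967 to 12419 CPM in wild type. Of 7 macrophage markers 5 fell, with 152 to 192 CPM in knockout and 231 to 270.1 CPM in wild type, and of 6 megakaryocyte markers 5 fell, with 142 to 161 CPM in knockout and 267 to 368 CPM in wild type. Of 6 heart muscle markers 2 rose, with 73.0 to 340.0 CPM in knockout and 68.1 to 127 CPM in wild type, where Nppa, which encodes a peptide of the heart's atria, was at 0 in replicate 3. Of 8 neural markers 0 rose and 0 fell, with 53.0 to 64.9 CPM in knockout and 33.6 to 93.4 CPM in wild type. Whether these other cell types bear on the small differences of the splicing factor genes was not tested.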

How the data were processed

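Per the submitters' processing notes, cutadapt 1.4.2, TopHat2, HTSeq, DESeq2 and DESeq were used on build mm10; their settings, the read length and the annotation release could not be stated from these sources. The authors deposited raw read counts per gene for 7 libraries, with 5 HTSeq summary lines that were kept out of library sizes. The authors' deposited table gives a baseline signal (mean of normalized counts), a log2 fold change with its standard error, a Wald-type score and p-values for 15548 genes. It comes from the same counts and is no independent evidence.

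Members were joined by identifier. The test on counts used edgeR 4.0.16 under R 4.3.3 (filterByExpr, TMM, quasi-likelihood test with genotype as the only term, Benjamini-Hochberg adjustment over all 16226 tested genes, threshold 0.05). The test was checked on simulated data. Standard errors are approximate, taken as the size of the log2 fold change divided by the square root of the test's F statistic. The 95% intervals were built from these standard errors with the t distribution. Levels per kilobase use the union of GENCODE M21 exons on the same build. Shared sequence was searched in 50-base windows of M21 transcripts, and coding sequences were aligned with Biopython 1.88. The text names Pcbp2, Pcbp1, Pcbp3, Pcbp4, Hnrnpk, every gene past the threshold, the 5 with the smallest p in each role, the 5 most abundant per kilobase and the lowest one. Members and lists were chosen with earlier results of these data known. Of the listed genes, Sf3b6 and Adgre1 were not matched by name and Celf6 was too low to test. Alternatives were RLE factors, total-count scaling, globins left out of scaling, no filter, at least 5 CPM in 3 libraries, limma-voom (limma 3.58.1), DESeq2 1.42.0, a replicate block and each library left out.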

Additional observations from a re-analysis of the deposited data

Results flagged for a closer look

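Of 48 sets of 4 wild-type values examined for a sample far from the others, 2 stood out, and chance alone would pick out about 1 in 20. Pcbp2 had 165 CPM in wild-type replicate 1, with 329 CPM in the nearest other library. Hnrnpl had 376 CPM in wild-type replicate 4, with 353 CPM in the nearest other library.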

How the results depend on the processing

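Over 15 alternatives, 621 of 689 log2 fold changes of single splicing factor genes kept their direction and their side of the threshold, and 54 changed sign. Every change of sign was in a gene that passed under neither setting. Total-count scaling gave 651 rising genes over all genes, DESeq2 617 rising and 1057 falling, and the replicate block 852 rising and 1204 falling. Leaving out single libraries gave 24 to 418 rising and 116 to 753 falling genes. The number of splicing factor genes that rose was 0 with RLE factors, no filter, limma-voom and each library left out (lowest 0, highest 0), 3 with total-count scaling, and 2 with DESeq2 and with the replicate block. Their median was 0.19 with total-count scaling. Core spliceosome genes that rose numbered 4 with total-count scaling, and 2 fell with DESeq2 and 5 with the replicate block. SR kinases and related genes that rose numbered 7 with total-count scaling, 2 with DESeq2, 5 with the replicate block and 0 to 1 without single libraries, while 1 fell with the block and 0 to 1 without single libraries. Other RNA-binding genes that rose numbered 4 with total-count scaling, 2 with at least 5 CPM in 3 libraries, 3 with DESeq2, 4 with the block and 0 to 1 without single libraries, and 2 fell with DESeq2 and 4 with the block. The cause of these shifts was not tested.

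Signs reversed with total-count scaling for Hnrnpa0 (0.0899), Hnrnpab (0.12), Hnrnpc (0.0191), Hnrnpf (0.10), Hnrnph2 (0.12), Hnrnpm (0.0951), Hnrnpr (0.0974), Pcbp1 (0.0134), Srsf3 (0.0252), Srsf4 (0.0994) and Srsf9 (0.0357), which all became positive. With the replicate block they reversed for Hnrnph2 (0.0127), Ptbp2 (-0.0718), Srsf12 (0.0516) and Tra2b (-0.0276). Without single libraries, log2 fold changes ran from -0.0568 to 0.0949 for Celf1, -0.0933 to 0.0475 for Hnrnpa0, -0.0615 to 0.11 for Hnrnpa2b1, -0.0389 to 0.0628 for Hnrnpa3, -0.0499 to 0.0223 for Hnrnpab, -0.0297 to 0.0966 for Hnrnpd, -0.0859 to 0.0168 for Hnrnpf, -0.081 to 0.0602 for Hnrnph2, -0.0696 to 0.0048 for Hnrnpm, -0.0562 to 0.0032 for Hnrnpr, -0.024 to 0.086 for Hnrnpul1, -0.14 to 0.21 for Mbnl1, -0.0798 to 0.19 for Ptbp2, -0.0557 to 0.23 for Ptbp3, -0.0764 to 0.0443 for Srsf4, -0.0456 to 0.0901 for Srsf6, -0.17 to 0.0281 for Srsf9, -0.0224 to 0.12 for Tra2a and -0.0223 to 0.14 for Tra2b.

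Only the numbers 3 and 4 occur in both groups. Deviations of equal-numbered libraries correlated at 0.31 for number 3 and 0.25 for number 4. Between libraries of unequal number the correlations were lower. They ran from -0.32 (knockout 5 with wild type 3) to 0.15 (knockout 5 with wild type 1). With 2 pairs the numbers were not taken to pair the samples. With the replicate block, which compared the genotypes within the numbers 3 and 4 only, Mbnl2 and Pcbp4 rose.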
